A study of Mus musculus with 2 samples.

Results

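Solute carriers are membrane proteins that move amino acids, sugars, lactate, lipids, nucleosides, metals and ions across the cell surface and the membranes of mitochondria, lysosomes and the Golgi. In tumours, infiltrating myeloid cells and cancer cells draw on the same nutrients, and macrophages are known to switch transporters with oxygen supply, activation and division. The genes described here carry symbols of the form Slc, a family number and a letter, with at least 1000 unique molecular identifiers (UMIs, 1 per captured RNA molecule) over both matrices. Of 384 such symbols among 55357 annotated genes, 322 had at least 1 UMI, 233 had fewer than 1000 and 151 had at least 1000. The rule leaves out Slc2a1, Slc7a2, Slc9b2, Slc11a1, Slc37a2 and Slc40a1; Slc40a1 had 382 UMIs and was under the limit anyway, so 5 of the 151 were left out and 146 remained. The last genes inside the limit were Slc35e2 with 1034 UMIs and Slc2a9 with 1018, and the first outside were Slc20a2 with 946 and Slc9a3r2 with 897. The symbol alone does not make a carrier: 4 of the 146 are the scaffold protein gene Slc9a3r1, the kanadaptin gene Slc4a1ap, and Slc7a6os and Slc36a3os, transcripts named for lying opposite a carrier gene.

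MC38 cells, a mouse colon adenocarcinoma line, were grown as subcutaneous tumours in C57BL/6 mice that the labels call UEIS LSL and UEIS KI, and CD45+ cells sorted from the digested tumours were profiled in 1 droplet library of 3′ RNA ends per host. The labels do not spell out either name, the promoter or allele behind it, the age of the mice or how many were pooled. By the title of the series, UEIS is a micropeptide acting against interferon signalling through cGAS-STING, and the comparison asks how the transporter genes of tumour-infiltrating cells differ between both hosts. With 1 library per group there is no test across animals: ratios below carry exact 95% intervals that cover counting error only, and a difference between hosts cannot be told apart from a difference between 2 preparations.

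The LSL library held 9527 barcodes and 92764697 UMIs, and the KI library 9734 barcodes and 99404988 UMIs; 34 barcodes occurred in both. After limits on depth, genes and mitochondrial share and removal of called doublets, 8646 and 8685 cells remained, with medians of 7892 and 8642 UMIs. The 146 genes made up 0.599% of all UMIs in LSL and 0.638% in KI. Cells were sorted into classes by lineage markers. Macrophages numbered 6393 in LSL and 6806 in KI, monocytes 363 and 416, type 2 conventional dendritic cells (cDC2) 311 and 207, mature dendritic cells 78 and 45, T cells 121 and 143, B cells 26 and 62, neutrophils 25 and 73, and fibroblasts 85 and 20. Left outside these classes were 271 and 216 cells of mixed markers, 226 and 208 ungated cells, and 19 and 21 NK cells. Macrophages with monocyte markers (266 and 250) or cDC2 markers (197 and 45) were also set apart. Class sizes depend on the gates. The T cell cluster of a Leiden clustering, for example, held 351 cells in LSL and 235 in KI. A further 265 and 173 cells were gated on Tm4sf1, Crabp1 and Sox9, with at least 2 of these genes seen. These cells held almost no Ptprc, the gene for CD45 (6.81 and 2.38 UMIs per 1000000, or CPM, against 212 and 187 in macrophages). The gate was chosen after the data were seen, and its genes lead the class by definition. The cells are left unnamed. They and the fibroblasts, with Ptprc at 11.2 and 7.78 CPM, do not match the CD45+ sort by this gene. RNA of C1qa, a macrophage complement gene, was read in other classes. In T cells it stood at 5.01% of its macrophage level in LSL and 10.97% in KI. In B cells it stood at 5.36% and 14.7% and in neutrophils at 5.51% and 12.7%. Whether this was free RNA was not tested. Low levels of a transporter in each class are to be read against that class's own share of C1qa.

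The promoter windows of 4 genes are shown, picked from those named for the Mmp12 Hilpda hypoxic and Rsad2 Isg15 macrophage states described below. Genes that lead the other states are not shown. They are RefSeq sequences of GRCm38.p6, 250 bases before to 50 bases after a transcript start, 5′ to 3′ on the gene's strand. In the first 2, capitals mark the hypoxia response core, ACGTG or GCGTG on either strand; in the third, the C/EBP-ATF response element TGATGNAA; in the fourth, the interferon-stimulated response element, which is GAAA, any 2 bases and GAAA, again on either strand.
Slc16a3 (chr11:120948817-120949116, plus strand): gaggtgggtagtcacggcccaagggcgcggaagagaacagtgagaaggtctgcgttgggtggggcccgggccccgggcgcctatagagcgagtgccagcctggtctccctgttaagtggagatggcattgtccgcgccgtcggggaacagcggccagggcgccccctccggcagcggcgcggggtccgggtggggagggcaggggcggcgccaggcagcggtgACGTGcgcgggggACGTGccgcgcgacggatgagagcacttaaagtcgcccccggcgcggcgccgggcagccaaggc
Slc22a4 (chr11:54028055-54028354, minus strand): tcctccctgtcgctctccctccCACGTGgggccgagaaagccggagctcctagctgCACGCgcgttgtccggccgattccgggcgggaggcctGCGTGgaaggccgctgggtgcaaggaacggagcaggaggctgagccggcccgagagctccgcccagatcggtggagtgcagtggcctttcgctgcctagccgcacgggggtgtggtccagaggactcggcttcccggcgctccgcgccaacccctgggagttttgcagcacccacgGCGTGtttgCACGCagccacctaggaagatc
Slc7a11 (chr3:50443564-50443863, minus strand): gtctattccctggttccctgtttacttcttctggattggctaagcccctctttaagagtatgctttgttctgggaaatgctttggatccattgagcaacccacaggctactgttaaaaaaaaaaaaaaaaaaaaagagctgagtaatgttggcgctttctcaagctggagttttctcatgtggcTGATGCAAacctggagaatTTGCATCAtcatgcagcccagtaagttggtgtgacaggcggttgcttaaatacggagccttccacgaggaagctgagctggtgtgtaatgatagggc
Slc25a22 (chr7:141435326-141435625, minus strand): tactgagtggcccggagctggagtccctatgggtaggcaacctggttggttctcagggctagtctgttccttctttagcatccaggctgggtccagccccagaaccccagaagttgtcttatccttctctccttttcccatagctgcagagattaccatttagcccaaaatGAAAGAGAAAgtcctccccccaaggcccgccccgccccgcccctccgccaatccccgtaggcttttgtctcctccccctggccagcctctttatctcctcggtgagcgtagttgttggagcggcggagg
Slc16a3 held 2 matches, the first 27 bases before the start. Slc22a4 held 6, of which 2 overlap in the marked CACGTG, 1 on each strand. Slc7a11 held 2 matches to its element and 0 to the hypoxia core. The window of Slc25a22 is 1 of 3 listed for that gene, and the other 2 have no match to the interferon element; of 4 genes higher in the Rsad2 Isg15 state with a window, it is the 1 gene with a match. Of 32851 promoter windows of all genes, 43.8% held the hypoxia core, 3.97% the C/EBP-ATF element and 3.44% the interferon element, so the hypoxia core is a common string. RefSeq windows were found for 112 of the 146 genes, and of their 151 windows 63.6% held the hypoxia core, 3.97% the C/EBP-ATF element and 1.33% the interferon element. Also searched were the antioxidant response element TGACNNNGC and the E-box CACGTG. The antioxidant element was in 12.4% of all windows and 21.2% of the 151, the E-box in 7.15% and 17.9%. These differences were not tested. A match describes letters in a window and not a bound site.

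Most transporter genes were read in every class, and few marked one. A gene was called highest in a class when its CPM was at least 2-fold above the next class in both libraries. The class also had to hold at least 50 of its UMIs over both. B cells and neutrophils had the fewest UMIs, so this minimum limits calls there most. Slc15a4, for example, stood 2.14-fold and 2.35-fold above the next class in B cells but fell short of the minimum. The rule held for 8 of 146 genes (5.48%), against 9.43% of all genes tested. With every cell thinned to 2000 UMIs the count was 2, on fewer cells and UMIs.
Slc7a11, the cystine-glutamate exchanger that feeds glutathione synthesis, was read at 581 CPM (95% interval 359.9 to 889) in LSL neutrophils and at 1132 (949 to 1340) in KI neutrophils. The next class, mature dendritic cells, had 116 and 222, macrophages had 43.6 and 48.1, and fibroblasts had 0 and 3 UMIs. Neutrophils therefore stood 5.03-fold and 5.09-fold above the next class, on 25 and 73 cells.
Slc33a1, which carries acetyl-CoA into the endoplasmic reticulum, had 79.2 and 53.6 CPM in mature dendritic cells, 2.68-fold and 2.07-fold above fibroblasts, on 37 and 14 UMIs.
Fibroblasts led for 3 genes. The zinc, iron and manganese importer gene Slc39a14 had 159 and 259 CPM there against 25.0 and 30.1 in macrophages. Slc43a3, a purine base transporter, had 142 and 93.3 against 9.90 and 9.97 in macrophages. Slc38a10, of the glutamine transporter family, had 159 and 161 against 49.1 and 54.6.
The Tm4sf1 Crabp1 cells led for the remaining 3 genes, where 3.49% of all genes were highest in that class. Slc12a2, the sodium-potassium-chloride importer, had 76.2 CPM (69.1 to 83.8) in LSL and 44.6 (37.7 to 52.3) in KI, against 2.74 and 3.47 in macrophages. Slc29a1, the equilibrative nucleoside transporter, had 305 and 203 against 89.9 and 80.6. Slc7a5, the large neutral amino acid transporter, had 121 and 88.8 against 22.4 and 22.3. All 3 had the lower level in the KI library of that class.

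**Figure D1:**
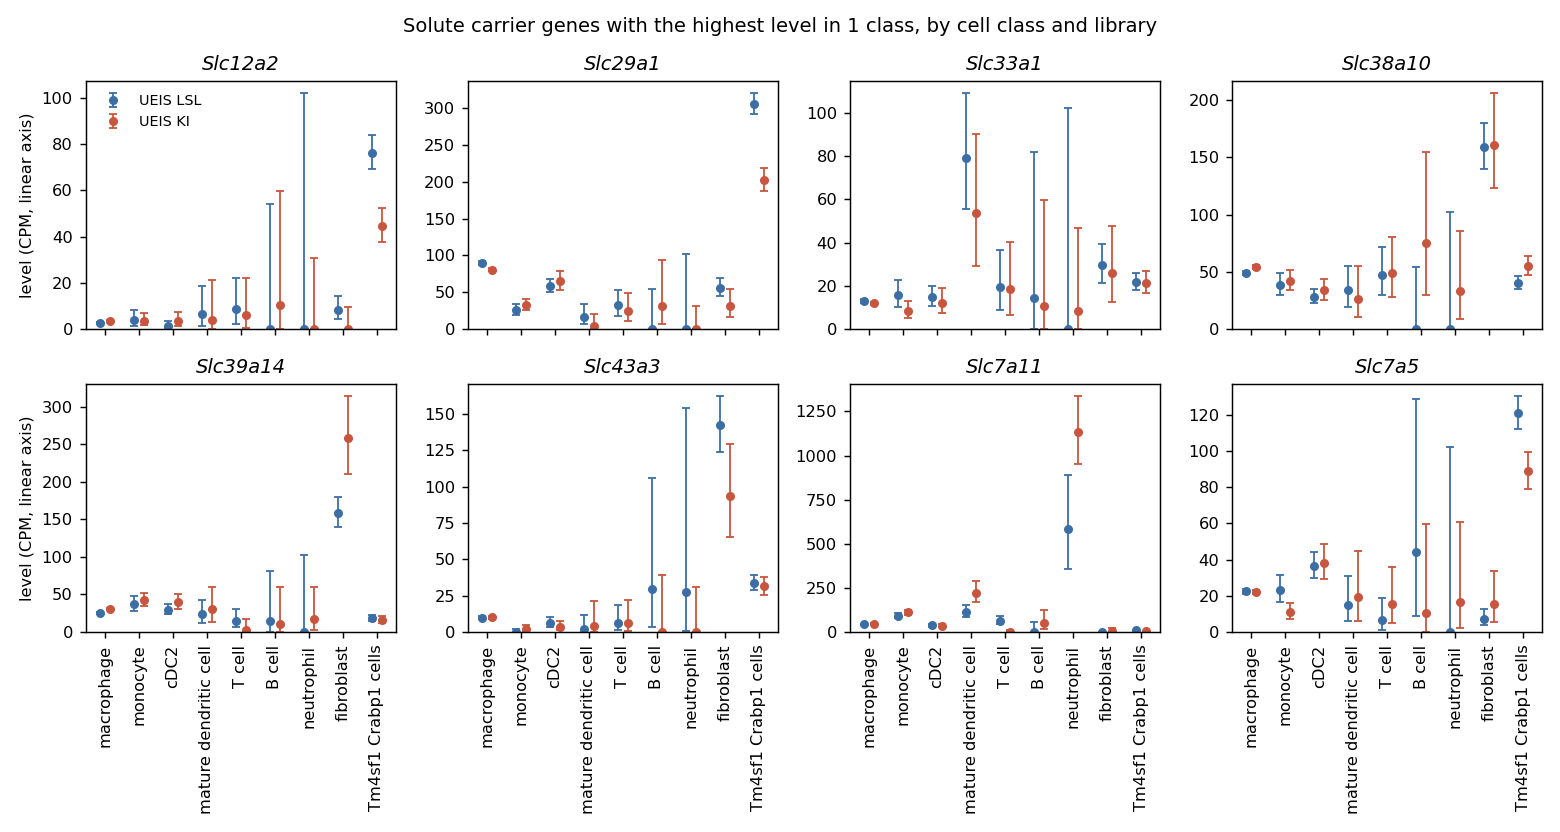
Levels of the 8 genes called highest in 1 class, in CPM on linear axes, by cell class; points are the class sums of each library (blue LSL, red KI) and bars exact Poisson 95% intervals. Slc7a11 peaks in neutrophils, Slc33a1 in mature dendritic cells, 3 genes in fibroblasts and 3 in the Tm4sf1 Crabp1 cells, in both libraries; wide bars mark the B cells and neutrophils with few UMIs.

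Each class was also set against the macrophages of its own library, and a gene was counted where it was at least 1.5-fold away, with the interval on that side, in both libraries. Monocytes had 4 of 146 genes higher and 15 lower, against 4.05% and 9.32% of all genes. The choline transporter-like gene Slc44a2 was among those higher, at 30.2 and 33.2 CPM in monocytes against 14.2 and 13.8 in macrophages, and so was Slc7a11, at 91.1 and 111. Slc43a3 was among those lower, with 0 UMIs in LSL monocytes and 5 in KI.
In cDC2, 12 genes were higher and 26 lower (8.22% and 17.8%), against 6.17% and 9.84% of all genes. Slc44a2 was at 59.2 and 57.6 CPM in cDC2, 4.16-fold and 4.17-fold above macrophages. Slc2a6, a glucose transporter of intracellular membranes, was at 62.7 and 54.7, 3.45-fold and 2.50-fold above. The creatine transporter gene Slc6a8 was nearly missing, with 9 UMIs in LSL cDC2 and 2 in KI.
Mature dendritic cells had 12 genes higher and 18 lower, against 7.68% and 11.8% of all genes. Slc2a6 was higher there too, at 74.9 and 76.6 CPM.
T cells had 10 genes higher and 8 lower, against 8.08% and 6.48%. Slc38a2, the sodium-coupled neutral amino acid transporter, was at 472 and 395 CPM in T cells against 188 and 190 in macrophages, and Slc44a2 at 51.7 and 55.5. B cells had 3 higher and 2 lower against 3.0% and 2.91%, with Slc38a2, Slc44a2 and the lysosomal histidine and peptide transporter gene Slc15a4 higher. Neutrophils had 4 higher and 1 lower against 2.9% and 2.75%; besides Slc7a11, the lactate exporter gene Slc16a3 was at 803 and 679 CPM. Both classes are small, and the median cell had at most 1441 UMIs.
Fibroblasts had 22 higher and 29 lower against 11.5% and 14.3%. Slc38a1, the neutral amino acid transporter of system A, had 4 UMIs in LSL fibroblasts and 0 of 385841 in KI, where 3 UMIs would be 7.78 CPM. Macrophages were at 80.5 and 71.5 CPM. The Tm4sf1 Crabp1 cells had 32 higher and 42 lower (21.9% and 28.8%) against 33.5% and 18.5% of all genes. Slc44a2 was counted as higher than in macrophages in monocytes, cDC2, T cells, B cells, fibroblasts and the Tm4sf1 Crabp1 cells.

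Macrophages were split into 9 states and a remainder by marker genes that include no transporter, each cell taking the first state whose limit it passed. The states are score ranges and not cell types: for the C1q-high Ccl12 Fcrls state, for example, 2353 macrophages lay within 10% of its limit. A transporter was counted in a state when it was at least 1.5-fold above all other macrophages in both libraries, with the interval above 1. This held for 64 of 146 genes in at least 1 state (43.8%), against 41.2% of all genes tested and 41.5% of those with at least 1000 UMIs. Of the 64, 48 were counted in 1 state, 15 in 2 and 1 in 3. The states differed in depth, with median UMIs per cell from 5242.5 in KI resident-like macrophages to 16540.5 in KI dividing ones. The part of depth in these differences was not tested. The count was 54 to 71 under the alternatives tried, and the lowest, 54, came with every cell thinned to 2000 UMIs. A count does not show whether the same genes were counted.

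Macrophages of the Mmp12 Hilpda hypoxic state (876 cells in LSL, 900 in KI) had 7 transporters higher, against 4.93% of all genes, and 46 lower (31.5%), against 24.1%. The 7 were Slc16a3, Slc7a11, Slc6a8, Slc49a4, Slc23a2, Slc41a2 and Slc22a4.
Slc22a4, a carrier of the antioxidant ergothioneine and of organic cations (chromosome 11, 53983123 to 54028090, GRCm38), was at 31.2 CPM in the state and 3.53 in the other macrophages in LSL, and at 23.8 and 5.66 in KI. These are ratios of 8.86-fold and 4.20-fold.
Slc16a3, which exports lactate from glycolytic cells, was at 505 CPM against 153 in LSL and 465 against 188 in KI, or 3.29-fold and 2.47-fold. It was lower than in other macrophages in the osteoclast-like, resident-like and C1q-high states.
Slc7a11 was at 111 CPM against 35.1 in LSL and 118 against 38.5 in KI, or 3.15-fold and 3.07-fold, and was lower in the dividing, osteoclast-like, resident-like and C1q-high states. Slc23a2, the ascorbate importer, was at 29.9 against 12.6 and 28.1 against 13.9. RefSeq windows were found for 6 of the 7 genes, and 71.4% of their 7 windows held the hypoxia core. It was in 75.0% of 32 windows of the genes higher in resident-like macrophages and in 63.6% of 151 windows of all the transporters.
Among the 46 lower genes, Slc43a3 was at 0.758 and 1.27 CPM, and the mitochondrial dicarboxylate carrier Slc25a10, the nucleoside transporter Slc29a1, Slc7a5 and the glutamine importer Slc1a5 were lower as well.

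Resident-like macrophages, marked by Lyve1, Folr2, Cd163, Fcna and Timd4 (272 cells in LSL, 760 in KI), had the most genes higher of the 9 states: 35 of 146 (24.0%), against 11.7% of all genes, with 17 lower (11.6%), against 11.4%.
Slc28a2, the concentrative purine nucleoside importer, was at 69.5 CPM against 9.51 in LSL and 64.4 against 8.71 in KI, or 7.31-fold and 7.40-fold. Slc9a9, the endosomal sodium-proton exchanger, was at 91.4 against 16.3 and 92.9 against 16.2, or 5.60-fold and 5.75-fold. Both ratios were nearly the same in the 2 libraries.
Slc20a1, the phosphate importer, was at 128 against 42.5 and 144 against 42.1. Slc12a7, a potassium-chloride exporter, was at 53.8 against 16.5 and 61.9 against 21.3. Also among the 35 were Slc36a1 and Slc38a7, which export amino acids from lysosomes, the sialic acid exporter Slc17a5 and the haem transporter Slc48a1; other lysosomal transporters were not, with Slc15a4, Slc29a3 and Slc38a9 not counted and Slc15a3 lower. Slc16a3, Slc7a11, Slc7a5 and Slc1a5 were among the 17 lower.
The C1q-high Ccl12 Fcrls state (996 and 919 cells) had 5 lower, against 6.36% of all genes. It had 5 higher, against 2.57%: Slc9a9, Slc66a1, Slc12a7, Slc38a7 and the folate transporter gene Slc46a1. All 5 higher genes were also counted as higher in the resident-like state. The share of all genes counted in both states was not computed. The 2 states overlap in their markers: C1qa was at 6193 and 6828 CPM in resident-like macrophages and at 5068 and 5316 in the C1q-high state. C1qb and C1qc were likewise higher in resident-like macrophages, whereas Ccl12 and Fcrls were lower. Slc9a9 was 2.15-fold and 1.88-fold above other macrophages in the C1q-high state, and Slc46a1 1.73-fold and 1.57-fold.

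Osteoclast-like macrophages, marked by Acp5, Ctsk, Mmp9, Dcstamp and Ocstamp (112 and 208 cells), had 21 genes higher (14.4%), against 10.8%, and 27 lower (18.5%), against 15.7%.
Slc6a8, which imports creatine, was at 123 CPM against 18.5 in LSL and 150 against 26.3 in KI, or 6.66-fold and 5.69-fold. Slc4a2, the chloride-bicarbonate exchanger that balances acid secretion in osteoclasts, was at 126 against 22.7 and 183 against 28.2, or 5.57-fold and 6.50-fold. The zinc transporter gene Slc39a13 was at 83.7 against 15.1 and 76.2 against 12.6, and the monocarboxylate importer gene Slc16a7 at 54.2 against 11.9 and 58.0 against 10.1.
The ATP-ADP exchangers of mitochondria were among the 21: Slc25a4 was 3.10-fold and 2.46-fold higher and Slc25a5 2.31-fold and 2.06-fold. The phosphate carrier Slc25a3 was 2.05-fold and 1.83-fold higher. Slc2a6 was close to absent, with 1 UMI in LSL and 4 in KI.
Dividing macrophages (692 and 1100 cells) had 6 genes lower, against 4.41% of all genes, and 4 higher, against 11.1%. Slc43a3 was at 31.5 CPM against 4.98 in LSL and 26.3 against 4.02 in KI, or 6.32-fold and 6.53-fold. Slc25a10 was 3.27-fold and 3.28-fold higher, Slc7a5 2.76-fold and 2.79-fold, and Slc29a1 1.92-fold and 1.62-fold. These genes carry purine bases, dicarboxylates, large amino acids and nucleosides.

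In Cxcl9-positive macrophages (351 cells in LSL, 84 in KI), 4 genes were lower, against 2.93% of all genes, and 2 were higher, against 1.74%. Slc2a6 was at 33.1 CPM against 17.2 in LSL and 47.9 against 21.6 in KI, and the lysosomal nucleoside transporter gene Slc29a3 at 67.4 against 39.6 and 65.6 against 30.9.
The Rsad2 Isg15 state without Cxcl9 (216 and 75 cells), cut on interferon-stimulated genes, had 9 genes lower (6.16%), against 4.52% of all genes. It had 5 higher, against 2.9%: Slc25a22, Slc15a3, Slc28a2, Slc7a8 and the copper transporter gene Slc31a2. The mitochondrial glutamate carrier Slc25a22 was at 30.4 CPM against 11.2 in LSL and 36.3 against 9.07 in KI, or 2.72-fold and 3.997-fold. Slc15a3, a lysosomal histidine and peptide exporter known to be induced by interferon, was at 221 against 112 and 177 against 85.1. The state also held hypoxic-state markers, with Mmp12 at 2415 CPM in LSL and 1882 in KI and Hilpda at 930 and 408, against 3489 and 4066, and 1210 and 963, in the hypoxic state. Its resident-like markers differed between the libraries, with Lyve1 at 51.9 and 302 and Folr2 at 105 and 363, and Slc28a2 is itself high in resident-like macrophages. The part of these markers was not tested. The KI values of this state rest on 27 UMIs for Slc25a22 and 28 for Slc28a2.
MHC class II-high macrophages without Cxcl9 (1497 and 508 cells) had 6 lower, against 7.17%. They had 2 higher, against 1.96%: Slc2a6, 2.14-fold and 2.31-fold, and Slc36a3os, 2.05-fold and 2.63-fold. Spp1-high Arg1 macrophages (464 and 1255 cells) had 0 higher, against 0.425%, and 5 lower, against 5.53%.

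**Figure D2:**
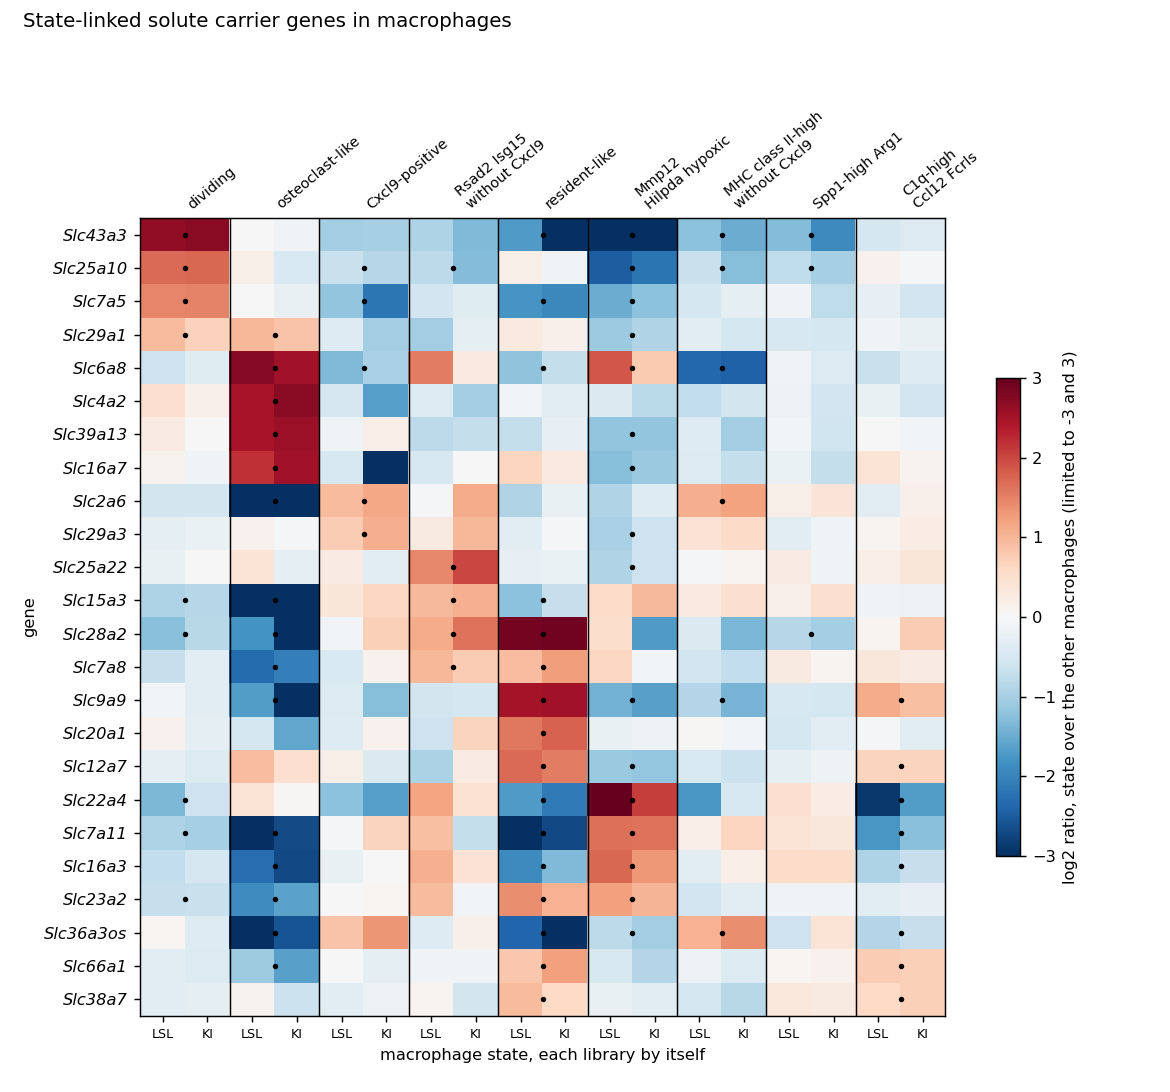
Log2 ratio of each state over the other macrophages for the transporters named by state, LSL and KI columns side by side; colour runs from -3 (blue) to 3 (red), and a dot marks a gene past 1.5-fold in both libraries in either direction. Slc28a2 and Slc9a9 stand out in resident-like, Slc6a8 and Slc4a2 in osteoclast-like, and Slc22a4, Slc7a11 and Slc16a3 in hypoxic macrophages.

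Between hosts, the transporters of macrophages were close to each other. All 146 genes had at least 50 UMIs in macrophages; 3 were at least 1.5-fold higher in KI (2.05%) and 0 lower (Slc36a3os, at 1.46-fold lower, came nearest), against 5.07% higher and 5.2% lower of all genes, and 2.78% and 3.72% of genes with at least 1000 UMIs. The median log2 ratio of KI over LSL was 0.03 over the 146 genes and 0.03 over all genes.
Slc27a1, a fatty acid transport protein that activates long-chain fatty acids (chromosome 8, 71568882 to 71587302), was at 47.0 CPM (45.3 to 48.8) in LSL macrophages and 84.3 (82.2 to 86.5) in KI. The ratio was 1.79-fold (1.71 to 1.88).
Slc25a24, the calcium-regulated mitochondrial carrier of ATP-magnesium and phosphate (chromosome 3, 109123149 to 109168457), was at 25.0 CPM (23.8 to 26.3) in LSL and 37.9 (36.5 to 39.4) in KI, or 1.52-fold (1.42 to 1.62).
Slc6a8 (chromosome X, 73673150 to 73682502) was at 21.2 CPM (20.004 to 22.4) in LSL and 31.9 (30.6 to 33.2) in KI, or 1.51-fold (1.404 to 1.614). The last 2 genes lie at the limit of 1.5-fold, and their intervals hold it. The count of 3 was 1 with a median-ratio size factor and 6 with doubled gate limits.

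**Figure D3:**
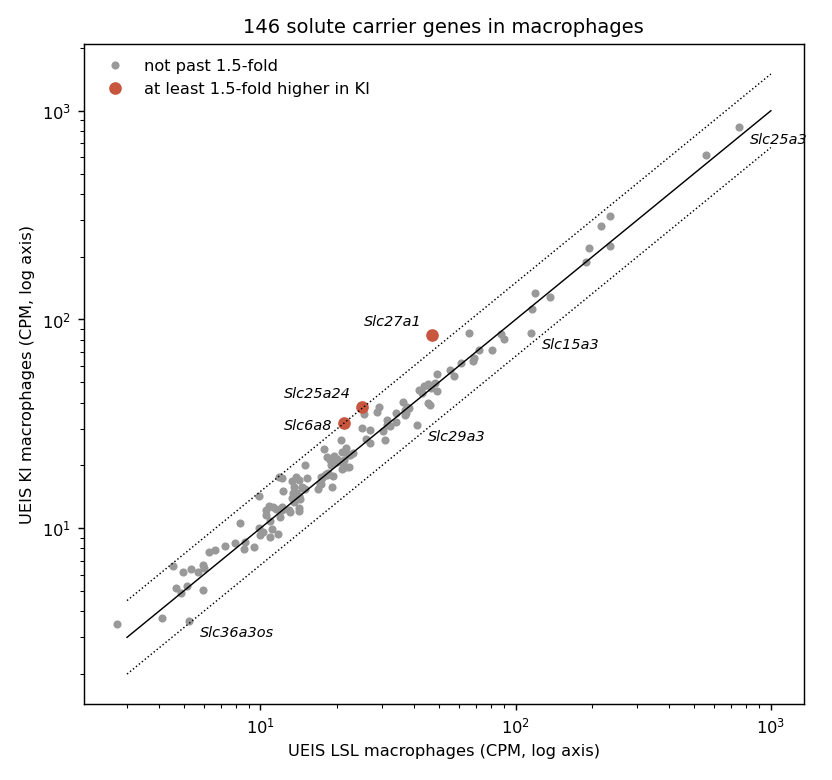
CPM of the 146 transporter genes in LSL macrophages (x) and KI macrophages (y), both on log axes; the line marks equality, the dotted lines 1.5-fold. Slc27a1, Slc25a24 and Slc6a8 (red) lie above the upper dotted line and no gene lies below the lower one; Slc15a3, Slc29a3 and Slc36a3os are the lowest ratios.

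The macrophage states were present in different numbers in the 2 libraries, so the 3 genes were read within states. With both libraries given the same mix of states, the log2 ratio moved from 0.84 to 0.63 for Slc27a1, from 0.60 to 0.48 for Slc25a24 and from 0.59 to 0.33 for Slc6a8, and 1 of the 3 stayed past 1.5-fold. Slc27a1 had a ratio of KI over LSL above 1 in 8 of 10 states and past 1.5-fold in 6, most in dividing macrophages, at 45.9 CPM in LSL and 94.2 in KI. In the hypoxic state it was at 81.1 and 79.3, with no difference beyond counting error, and in the Rsad2 Isg15 state at 74.7 and 64.5. Slc6a8 had a ratio below 1 in the same 2 states, with 59.6 and 50.2 CPM in the hypoxic one, and above 1 in 7 others. Slc25a24 had a ratio above 1 in 9 of 10 states and was past 1.5-fold in 3.
Slc2a6 showed the opposite relation to the mix. Over all macrophages it was at 18.2 CPM (17.1 to 19.3) in LSL and 21.9 (20.8 to 23.0) in KI, a log2 ratio of 0.27, and it was not counted. Within states its ratio was above 1 in 9 of the 9 with at least 50 UMIs and past 1.5-fold in 6. It was at 31.2 and 47.0 CPM in MHC class II-high macrophages, at 10.3 and 17.1 in hypoxic ones and at 10.5 and 21.2 in the remainder. With the same mix of states its log2 ratio was 0.60, past 1.5-fold. Its 2 highest states in LSL, Cxcl9-positive and MHC class II-high, held fewer cells in KI (351 against 84, and 1497 against 508). Slc2a6 was singled out after its values were seen; across states, 2.62% to 7.06% of all measured genes were past 1.5-fold higher in KI. Counts of all measured transporters within states were as follows. In dividing macrophages 4 of 146 were higher in KI and 1 lower, against 3.06% and 4.66% of all genes. In osteoclast-like ones 5 of 100 were higher and 3 lower, against 3.99% and 4.28%. Cxcl9-positive ones had 8 of 106 higher and 3 lower, against 3.25% and 3.66%. The share of transporters higher exceeded that of all genes in the last 2 states, and did so in 8 of the 10. In the Spp1-high Arg1 state the excess was small, at 3.42% against 3.38%. Unlike the transporters, the genes compared with them here were not limited to those with at least 1000 UMIs. The Rsad2 Isg15 state had 9 of 59 higher and 3 lower, against 7.06% and 4.37%, and the resident-like state 9 of 132 and 3, against 4.13% and 3.01%. The hypoxic state had 11 of 140 higher and 4 lower, against 5.07% and 3.59%, and the MHC class II-high state 9 of 145 and 4, against 4.27% and 4.18%. Spp1-high Arg1 macrophages had 5 of 146 higher and 2 lower, against 3.38% and 2.26%, and C1q-high ones 9 of 145 and 0, against 3.69% and 2.79%. The share higher was lowest in the remainder, with 3 of 145 higher and 1 lower, against 2.62% and 2.41%. Whether the transporters differ from other genes in this was not tested.

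**Figure D4:**
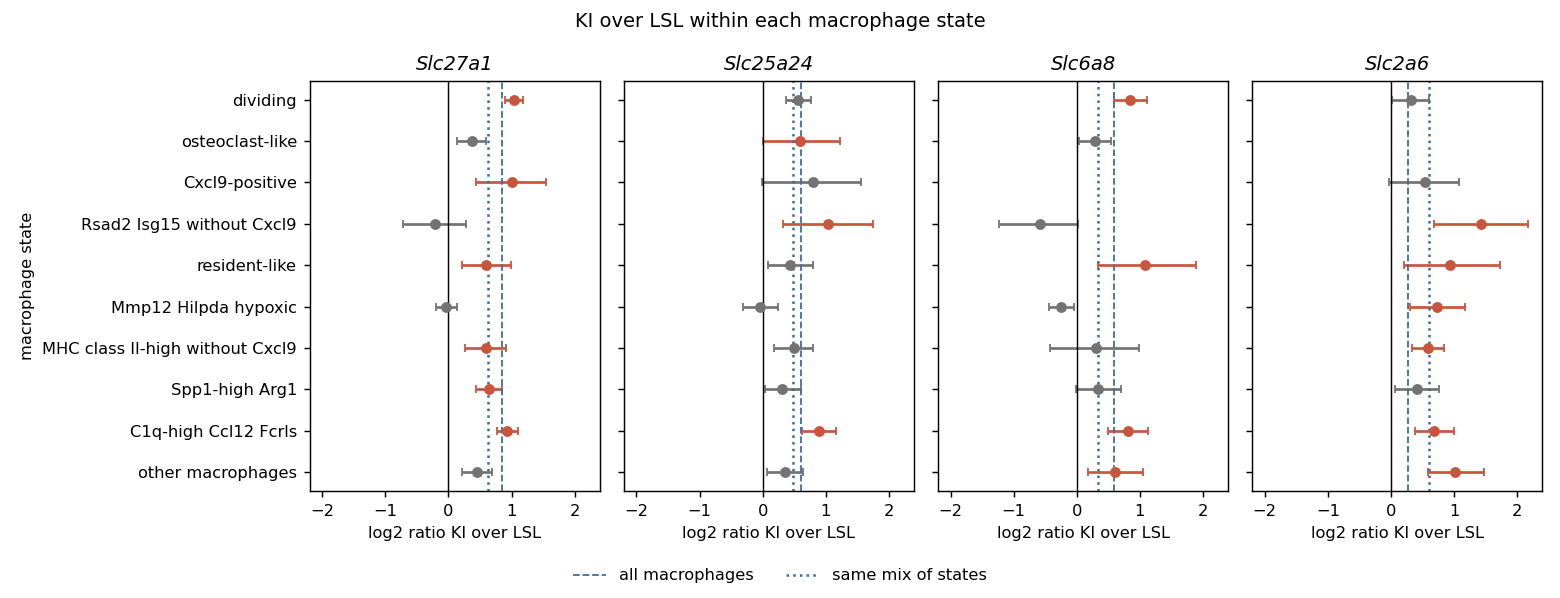
Log2 ratio of KI over LSL within each macrophage state for Slc27a1, Slc25a24, Slc6a8 and Slc2a6, with exact 95% intervals for counting error; red points are past 1.5-fold, the dashed line is the ratio over all macrophages and the dotted line that with the same mix of states. For Slc2a6 all 9 points lie right of 0 and the dotted line (0.60) right of the dashed one (0.27); for the other genes the dotted line lies left of the dashed one.

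By substrate group, the medians lay close to 0 in macrophages. Groups follow the family number and not each gene's own substrate, so Slc43a3 counts with amino acids, the ascorbate importer Slc23a2 with nucleosides and Slc16a10 with organic acids. The 30 mitochondrial carriers had 1 gene higher, Slc25a24, 0 lower and 29 neither, with a median log2 ratio of 0.03; Slc25a3 was at 752 CPM in LSL and 831 in KI, and Slc25a4 at 234 and 314. The 24 genes for amino acids and peptides had 1 higher, Slc6a8, and a median of 0.04. The taurine importer gene Slc6a6 was at 216 and 280 CPM, a log2 ratio of 0.37 (0.34 to 0.40), Slc38a2 was level at 188 and 190, and Slc3a2, the heavy chain that carries several amino acid transporters to the surface, was at 235 and 224.
The 13 genes for lipids, vitamins, choline and organic ions had 1 higher, Slc27a1, and a median of 0.15. The other groups had 0 called in either direction: 22 for metals and haem (median -0.03), 19 for nucleotide sugars (0.03), 16 for inorganic ions (0.12), 8 for sugars (0.11), 6 for organic acids (-0.13) and 4 for nucleosides and bases (-0.03). Slc16a3 was at 193 and 221 CPM and Slc29a1 at 89.9 and 80.6.
The lowest carrier ratios belonged to 2 lysosomal transporters, chosen here after their values were seen. Slc15a3 was at 115 CPM (112 to 118) in LSL and 86.1 (83.9 to 88.2) in KI, a log2 ratio of -0.42, and Slc29a3 at 41.2 and 31.3, a log2 ratio of -0.40. With the same mix of states these were -0.25 and -0.19.

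**Figure D5:**
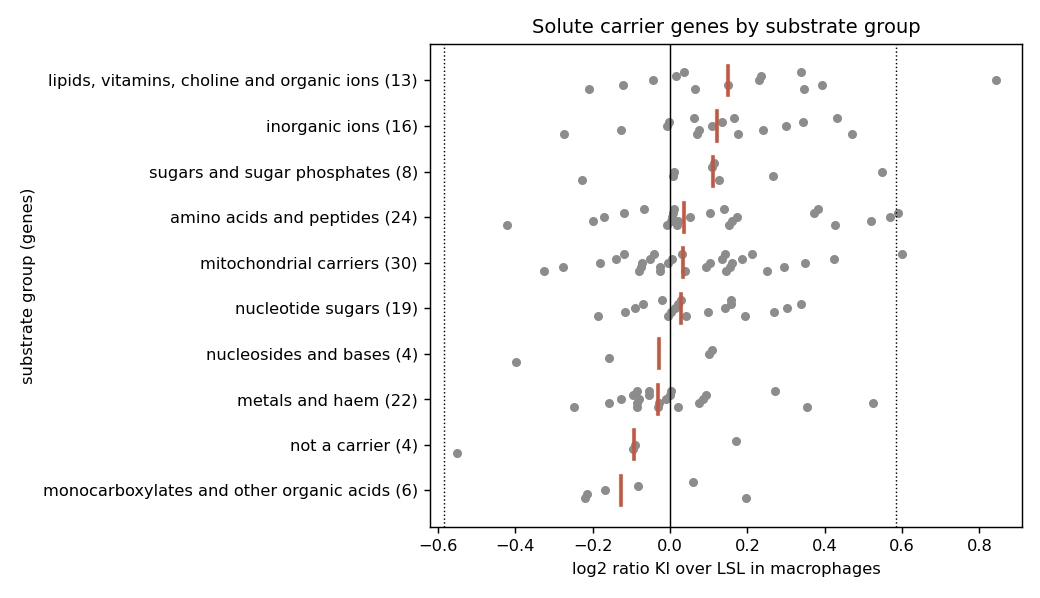
Log2 ratio of KI over LSL in macrophages for each of the 146 genes, by substrate group with the number of genes; red ticks are group medians and dotted lines 1.5-fold. Medians run from -0.13 for organic acids to 0.15 for lipids, vitamins, choline and organic ions, and 3 genes lie past the upper dotted line.

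Genes next to the transport steps were read from 3 lists, against the shares of 5.07% higher and 5.2% lower of all genes in macrophages; Asns is in both the enzyme and the response list. Of 20 partners and carriers under other symbols, 19 were in the files and 17 had enough UMIs; 0 were higher and 1 was lower in KI, the organic anion transporter gene Slco3a1, at 9.20 and 4.80 CPM, 1.92-fold (1.67 to 2.20) lower in KI. The lactate transporter chaperone Bsg was at 511 and 554. Of 22 enzymes, 0 were higher and 1 was lower: Phgdh, which opens serine synthesis, was at 11.7 and 4.54 CPM, 2.59-fold (2.27 to 2.96) lower in KI. Of 8 amino acid response genes, 0 were higher and 3 lower, with a median log2 ratio of -0.32: Atf5 at 23.3 and 15.4 CPM, Trib3 at 6.36 and 4.07, and Chac1 at 1.35 and 0.65, on 79 and 47 UMIs. Their regulator Atf4 was at 144 and 134, and Asns at 16.7 and 13.2. Slc7a11 and Slc3a2, known targets of Atf4, were at log2 ratios of 0.14 and -0.07. The values of the 3 lists are over all macrophages, each library with its own mix of states. The part of the mix in them was not tested.

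In monocytes 99 transporters had at least 50 UMIs, and 6 were higher and 5 lower in KI, against 5.62% and 4.18% of all genes; the medians were 0.08 over the transporters and 0.08 over all genes. The ATP-ADP exchanger Slc25a4 was at 119 CPM in LSL and 206 in KI, 1.73-fold (1.47 to 2.05) higher in KI. Slc4a1ap, Slc35b4 and Slc35a4 were also higher, on 32 UMIs or fewer in LSL. Slc48a1, which returns haem from the lysosome to the cytosol, was at 99.2 and 44.2 CPM, 2.25-fold (1.75 to 2.89) lower in KI, whereas it was level in macrophages at 87.5 and 85.6. Slc16a10, an aromatic amino acid transporter, was at 42.4 and 23.1, Slc7a5 at 23.2 and 10.9 and Slc27a1 at 25.0 and 15.1. The monocyte gates of the libraries differed in neutrophil RNA, with S100a8 at 30.8 CPM in LSL and 135 in KI; its part was not tested.
In cDC2, 98 transporters were measured, with 4 higher and 2 lower in KI, against 3.01% and 2.31%. The sodium-calcium exchanger gene Slc8a1 was at 13.4 and 25.9 CPM, 1.93-fold (1.22 to 3.07) higher in KI, and Slc41a3, Slc26a2 and Slc39a11, for magnesium, sulfate and zinc, were higher as well. Slc31a2 was at 40.5 and 22.9, and Slc7a8, a neutral amino acid exchanger, at 15.5 and 6.47. The cDC2 gates also differed in their defining marker Cd209a, at 698 CPM in LSL and 384 in KI.
In T cells 14 transporters were measured, with 1 higher and 2 lower, against 8.48% and 9.8%. Slc38a1 was at 123 and 203 CPM, 1.66-fold (1.145 to 2.405) higher in KI. Slc3a2 was at 302 and 200 and Slc16a3 at 155 and 95.6. The T cells of the 2 libraries differed in makeup, with Ccr7 at 58.2 CPM in LSL and 176 in KI and the glucose transporter gene Slc2a1 at 411 and 92.5; the part of makeup was not tested.
In the Tm4sf1 Crabp1 cells 127 were measured, with 7 higher and 7 lower, against 5.8% and 5.06%. Slc16a3 was at 50.01 and 98.9 CPM and Slc30a4, a zinc exporter, at 23.7 and 49.6. Slc27a1 (24.9 and 42.5) and Slc25a24 (60.4 and 91.2) were higher in KI here as in macrophages, whereas Slc6a8 was at 26.2 and 31.8. Among the 7 lower, the scaffold gene Slc9a3r1 was at 201 and 113, 1.77-fold (1.58 to 1.996) lower in KI, and Slc12a2 was at 76.2 and 44.6, 1.71-fold (1.42 to 2.07) lower. Slc29a1, at 305 and 203, and Slc20a1, at 47.1 and 30.9, were lower too. Crabp1 itself was at 217 and 1341 CPM, so the 2 libraries' cells of this gate were not alike.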

How the data were processed

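Per the labels, CD45+ cells of MC38 tumours from UEIS LSL and UEIS KI mice gave 1 10x 3′ library each. The deposited matrices hold raw UMI counts per gene and barcode. The submitters' processing notes name Cell Ranger 2.1.1 and mm10, whereas the file headers name version 8.0.1; which made the counts is not settled. Barcodes with at least 500 UMIs, 200 genes or more and no more than 10% of UMIs from mitochondria entered. Barcodes with the highest Scrublet doublet scores were removed, their number set by an assumed rate of 0.8% per 1000 barcodes. Within the limits these were 724 in LSL and 757 in KI. Cells were gated by mean log2 marker scores, with limits set after seeing the data. UMIs were summed per class and library and scaled to CPM by the class total. Intervals are exact 95% Poisson for levels and conditional binomial for ratios, for counting error only; the ratio script was tested on simulated data. A call needs 1.5-fold, an interval off 1 and at least 50 UMIs. Genes named were up to 4 per state, class and direction by the bound nearest 1, plus the most abundant of each substrate group; others named were chosen after their values were seen. Coordinates are from GENCODE on GRCm38. Members and lists were chosen with earlier results of these data known, and 16 alternatives were tried. Software was Python 3.11.15, numpy 2.4.6, scipy 1.17.1, pandas 2.3.3, scanpy 1.11.5, leidenalg 0.10.2 and matplotlib 3.10.9.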

Additional observations from a re-analysis of the deposited data

Results flagged for a closer look

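The transporters below had KI over LSL ratios past 1.5-fold in opposite directions in different classes or states. The share of all genes that did so was not counted. The difference between classes or states was not tested, and values are log2 ratios. In KI, the Rsad2 Isg15 and Cxcl9-positive states held only 75 and 84 cells. Slc27a1 stood at 0.84 in macrophages and -0.72 (-1.40 to -0.05) in monocytes, where it had 43 UMIs in LSL and 36 in KI. Slc29a1 stood at 0.60 in the Rsad2 Isg15 state and -0.84 in the Cxcl9-positive state. Slc20a1 stood at 0.59 in the Cxcl9-positive, 1.36 in the Rsad2 Isg15 and -0.88 in the osteoclast-like state. Slc7a11 stood at 0.83 in the Cxcl9-positive and 0.59 in the MHC class II-high state, and at -1.43 in the Rsad2 Isg15 state. The mitochondrial pyrimidine nucleotide carrier gene Slc25a33 stood at 1.25 in the Cxcl9-positive, 0.82 in the MHC class II-high and -1.38 in the osteoclast-like state. The folate importer gene Slc19a1 stood at 1.16 in the hypoxic and -0.69 in the osteoclast-like state. Slc28a2 stood at 0.68 in the C1q-high state, -1.92 in the hypoxic and -0.86 in the MHC class II-high state.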

How the results depend on the processing

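The count of 3 transporters higher in KI macrophages became 1 with a median-ratio size factor and 6 with doubled gate limits. The count of 0 lower became 1 with cells thinned to 2000 UMIs, 1 with Leiden clusters and 1 with doubled gate limits. The 8 transporters highest in 1 class became 2 with thinning; the alternatives for this count were chosen after seeing the data. The cause was not tested. The median log2 ratio ran in macrophages from 0.000489 to 0.08, in monocytes from -0.01 to 0.34 and for cDC2 from 0.02 to 0.14; the count by state from 54 to 71. Slc27a1 stood at 0.68 with every cell counted alike, 0.73 thinned, 0.77 with halved gate limits and 0.63 with the same mix of states, and Slc6a8 at 0.38, 0.31 and 0.33 under the first, second and last of these. The size factor leaves counts within 1 library as they are and was not run for the counts by state and class. No paired analysis was possible because each group is 1 library, and none could be left out. B cells and neutrophils limit the depth most.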
